A study of Caenorhabditis elegans with 9 samples.

Results

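Synapsis and homologue pairing are the steps of meiosis in which each chromosome finds its partner and is zipped to it. The 8 *C. elegans* genes described here were chosen by name from these functions. They are *syp-1*, *syp-2*, *syp-3* and *syp-4*, which encode proteins of the central region of the synaptonemal complex, and *zim-1*, *zim-2*, *zim-3* and *him-8*, which encode the zinc-finger proteins of the pairing centres. On the array each gene had 1 probe set that named it alone, so that the 8 genes were 8 of the 17118 genes named alone by some of the 22548 probe sets.

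The central region is the protein lattice that bridges the axes of paired homologues along their length, and in *C. elegans* its SYP components depend on one another to assemble. Pairing centres are repeat-rich regions near a chromosome end that link the chromosome to the nuclear envelope, where movement of the ends helps partners to meet. HIM-8 binds the X chromosome pairing centre, and loss of X pairing yields many male offspring. ZIM-1, ZIM-2 and ZIM-3 serve the autosomes. These proteins are known from germ cells that enter meiosis, which a newly hatched larva does not yet have.

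The study asked which genes are misregulated in first-stage (L1) larvae depleted of LET-418, the Mi-2 ATPase of a chromatin complex called MEC, or of MEP-1, its zinc-finger partner. The paper also places LET-418, without MEP-1, in a separate chromatin complex called NuRD. Total RNA of whole larvae was hybridised to Affymetrix *C. elegans* arrays, 9 in all, with 3 arrays for each of 3 groups. All animals were wild-type Bristol N2. They came from mothers fed HT115 bacteria that made double-stranded RNA, and after hatching without food the larvae were fed the same bacteria for 3 h, at 25 °C throughout. The groups were *let-418(RNAi)*, with a 440 bp insert, *mep-1(RNAi)*, with a 900 bp insert, and *gfp(RNAi)*, whose target does not exist in N2 and which served as the control. Batch numbers 1 to 3 are shared by the groups, and the methods describe the arrays as biological replicates. RNAi by feeding reaches most tissues of the larva and the germ cells of the mother, and the files hold no measure of protein depletion.

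Neither target gene was lower on the arrays labelled for it. The *let-418* signal averaged 1783 ± 431 on arrays labelled *let-418(RNAi)* and 915 ± 98.9 on *gfp(RNAi)* arrays (SD, n = 3 each), a log2 fold change of 0.94 (adjusted p = 0.0043, limma). The *mep-1* signal averaged 1565 ± 57.5 on arrays labelled *mep-1(RNAi)* and 1497 ± 79.0 on *gfp(RNAi)* arrays (n = 3 each), a log2 fold change of 0.07 (adjusted p = 0.78, limma). The sources used here do not say where the inserts lie relative to the probes, and the knockdown groups are named by their labels throughout. Signals are MAS5 intensities on a linear scale, scaled to 1 trimmed mean per array. The 25th percentile of the scaled signals, 19.0 to 23.4 on single arrays, marks the dim end of the array. Levels are compared between groups for 1 gene at a time, since the probe sets of different genes are not on 1 scale. The exceptions are the sums over marker lists, in all of which bright probe sets weigh most.

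All 8 genes had higher mean signals on the arrays of both knockdowns than on the *gfp(RNAi)* arrays. A gene is called here when its adjusted p from limma, over all probe sets, is under 0.05 and its fold change is at least 2. By that rule 7 of 8 genes rose in larvae labelled *let-418(RNAi)*, where 6.54% of all probe sets were called higher, and 7 of 8 rose in larvae labelled *mep-1(RNAi)*, where 6.78% were. The gene not called was *him-8* in both comparisons. It passed the adjusted p but not the fold limit, so that 8 of 8 genes were higher at an adjusted p under 0.05 (limma) in each comparison, as were 9.67% of all probe sets in *let-418(RNAi)* and 10.4% in *mep-1(RNAi)*. The median log2 fold change of the 8 genes was 1.34 in *let-418(RNAi)* and 1.66 in *mep-1(RNAi)* larvae, beside -0.03 and 0.02 over all probe sets. The signals of all 8 genes did not overlap with those of *gfp(RNAi)* in either comparison, which held in the same direction for 17.9% and 18.6% of all probe sets. Of the 24 differences within single batches, 19 reached 2-fold in *let-418(RNAi)* and 21 in *mep-1(RNAi)*. They come from the same signals as the calls and are no separate test, and the share over all probe sets is not given here. Without scaling of the arrays, *syp-1*, *syp-4* and *zim-1* kept their calls in both comparisons and *zim-3* in *mep-1(RNAi)*. With 21.1 added to every signal before the log2 step, *syp-2* was not called in either comparison (0.99 and 0.93), nor were *zim-2* (0.92) and *zim-3* (0.97) in *let-418(RNAi)*. The same 3 *gfp(RNAi)* arrays serve both comparisons, so the comparisons are not independent. In RNA of whole larvae, more cells that express a gene and more RNA per cell cannot be told apart.

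**Figure D1:**
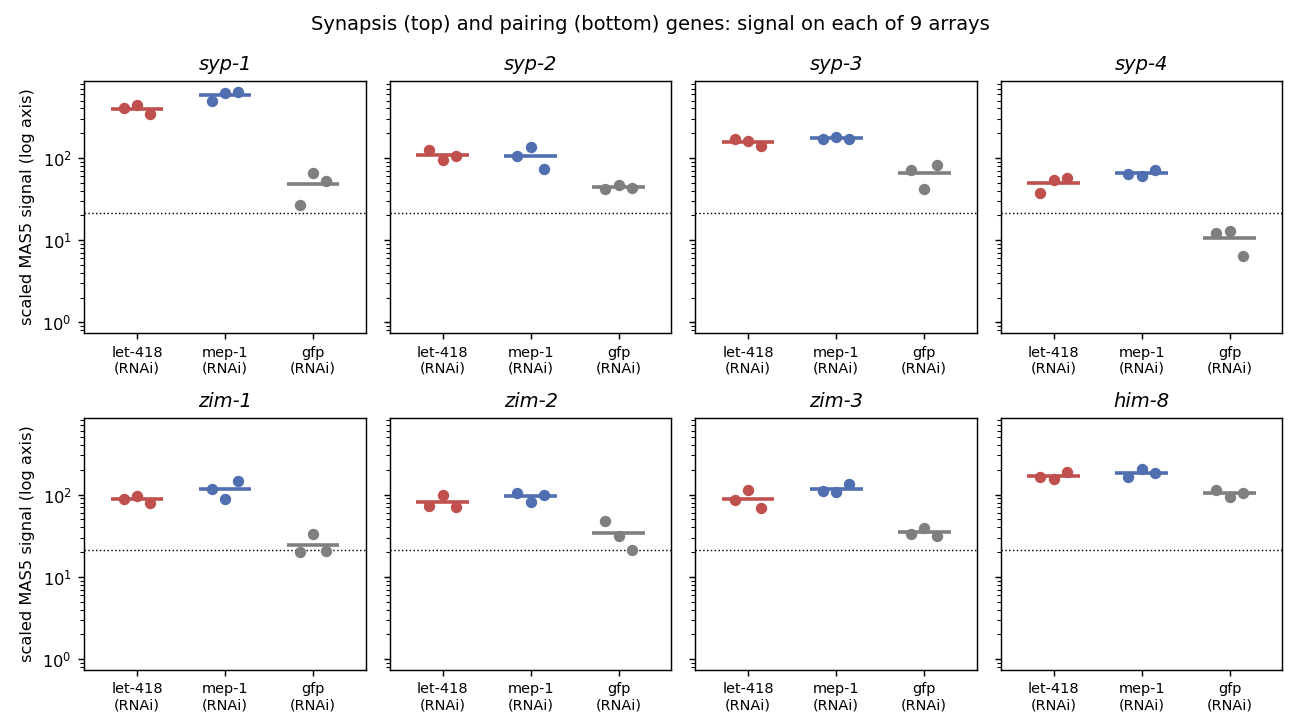
Scaled MAS5 signal (log axis) of each of the 8 genes on the 9 arrays, with 1 point per array, the arrays of a group in the order of their batch numbers, a bar at each group mean and a dotted line at 21.1, the 25th percentile of all scaled signals. For all 8 genes the 3 *let-418(RNAi)* and 3 *mep-1(RNAi)* points lie above the 3 *gfp(RNAi)* points. The *gfp(RNAi)* points of *syp-4*, and some of those of *zim-1*, lie below the dotted line.

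*syp-1* encodes a coiled-coil protein of the central region and had the largest fold changes of the 8 genes. It had scaled signals of 411, 442 and 340.4 on the *let-418(RNAi)* arrays and 495, 619 and 626 on the *mep-1(RNAi)* arrays, against 27.1, 65.8 and 52.3 on the *gfp(RNAi)* arrays (batches 1, 2 and 3). The lowest knockdown signal was several times the highest control signal, and the control array of batch 1 was the dimmest. The group means were 398 ± 52.0, 579.9 ± 73.3 and 48.4 ± 19.7 in that order (SD, n = 3 each). The fold change was 8.71 in *let-418(RNAi)* (log2 3.12, SE 0.28, 95% interval 2.51 to 3.74, adjusted p = 1.8e-05, limma). In *mep-1(RNAi)* it was 12.7 (log2 3.67, SE 0.28, 95% interval 3.05 to 4.29, adjusted p = 4.4e-06, limma). Batch 1, with the dimmest control, gave the highest log2 values, 3.92 and 4.19. The other batches gave 2.75 and 2.70 in *let-418(RNAi)* and 3.23 and 3.58 in *mep-1(RNAi)*.

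*syp-4*, another coiled-coil component, had the second largest fold changes of the 8 genes. Signals were 37.2, 54.3 and 56.4 in *let-418(RNAi)* and 63.3, 60.5 and 71.3 in *mep-1(RNAi)* larvae, against 12.1, 12.9 and 6.41 in *gfp(RNAi)* larvae. The 3 control arrays lay below the 25th percentile of all signals and the 6 knockdown arrays above it. Means were 49.3 ± 10.6, 65.0 ± 5.62 and 10.4 ± 3.52 (SD, n = 3 each). The gene rose 4.86-fold in *let-418(RNAi)* (log2 2.28, SE 0.36, 95% interval 1.49 to 3.06, adjusted p = 0.0011, limma) and 6.50-fold in *mep-1(RNAi)* (log2 2.70, 95% interval 1.92 to 3.49, adjusted p = 3e-04, limma). These sizes depend on dim control signals. With 21.1 added to every signal before the log2 step, they were 1.15 and 1.45 and the calls held.

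*syp-2* and *syp-3* rose by similar factors, with control signals above the 25th percentile of the array. Their probe sets carry a suffix used for probes that match more than 1 transcript, so other transcripts may add to these signals. *syp-2* had 126, 93.9 and 106 in *let-418(RNAi)* and 105, 136 and 73.8 in *mep-1(RNAi)* larvae, against 42.0, 46.7 and 42.8 in *gfp(RNAi)* larvae. The controls were nearly level, while the *mep-1(RNAi)* arrays spread widely, with batch 3 lowest. The fold changes in the knockdowns of *let-418* and *mep-1* were 2.46 (log2 1.30, SE 0.26, 95% interval 0.73 to 1.87, adjusted p = 0.0051, limma) and 2.33 (log2 1.22, 95% interval 0.65 to 1.79, adjusted p = 0.0071, limma). *syp-3* had 171, 160.1 and 141 in *let-418(RNAi)* and 171, 182 and 171 in *mep-1(RNAi)* larvae, against 72.0, 42.3 and 81.4 in *gfp(RNAi)* larvae. Here the knockdown arrays were tight and the control of batch 2 was low. The fold changes were 2.50 (log2 1.32, SE 0.24, 95% interval 0.79 to 1.86, adjusted p = 0.0032, limma) and 2.78 (log2 1.48, 95% interval 0.94 to 2.01, adjusted p = 0.0015, limma).

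The 4 SYP genes thus moved one way by unequal factors, with a median log2 fold change of 1.80 in *let-418(RNAi)* and 2.09 in *mep-1(RNAi)*. The log2 ratio of *syp-1* to *syp-2* signals on the same array was 1.69 to 2.23 in *let-418(RNAi)* and 2.18 to 3.08 in *mep-1(RNAi)*, against -0.63 to 0.49 in *gfp(RNAi)* larvae. The ratio of *syp-1* to *syp-3* likewise did not overlap with the controls, being 1.26 to 1.46 and 1.53 to 1.87, against -1.41 to 0.64. For *syp-1* and *syp-4* the ratios overlapped, at 2.59 to 3.47 and 2.97 to 3.35, against 1.17 to 3.03. These pairs were picked after the fold changes were seen, restate them from the same signals and carry no test.

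**Figure D2:**
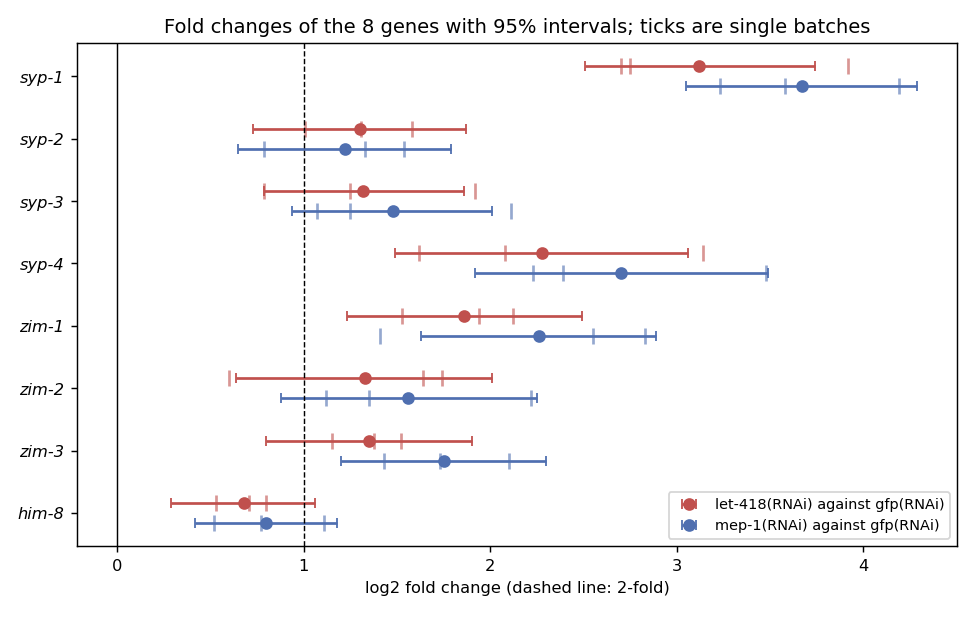
Log2 fold change of each of the 8 genes against *gfp(RNAi)* for *let-418(RNAi)* (upper, red) and *mep-1(RNAi)* (lower, blue), with points at the limma estimate, bars for the 95% interval, small ticks for the 3 single batches and a dashed line at 2-fold. The estimates run between 0.68 and 3.12 in *let-418(RNAi)* and between 0.80 and 3.67 in *mep-1(RNAi)*, with *syp-1* highest and *him-8* lowest in both.

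Among the pairing-centre genes, *zim-1* changed most. ZIM-1 binds the pairing centres of chromosomes II and III. Its gene had signals of 87.6, 96.2 and 79.0 in *let-418(RNAi)* and 118, 88.9 and 146 in *mep-1(RNAi)* larvae, against 20.2, 33.4 and 20.5 in *gfp(RNAi)* larvae. Means were 87.6 ± 8.58, 118 ± 28.4 and 24.7 ± 7.53 (SD, n = 3 each), and 2 of the 3 control arrays were near the dim end of the array. The gene rose 3.64-fold in *let-418(RNAi)* (log2 1.86, SE 0.29, 95% interval 1.23 to 2.49, adjusted p = 0.00097, limma) and 4.80-fold in *mep-1(RNAi)* (log2 2.26, 95% interval 1.63 to 2.89, adjusted p = 0.00022, limma). With the added 21.1 these were 1.26 and 1.59, still called.

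*zim-3*, whose product binds the pairing centres of chromosomes I and IV, rose in every batch by more than 2-fold. Signals were 86.8, 113 and 69.0 in *let-418(RNAi)* and 111, 107 and 133 in *mep-1(RNAi)* larvae, against 33.5, 39.6 and 31.1 in *gfp(RNAi)* larvae. The controls were level, and the *let-418(RNAi)* arrays spread more than the *mep-1(RNAi)* arrays (SD 22.3 and 14.2). The fold changes were 2.54 (log2 1.35, SE 0.25, 95% interval 0.80 to 1.90, adjusted p = 0.0034, limma) in *let-418(RNAi)* and 3.37 (log2 1.75, 95% interval 1.20 to 2.30, adjusted p = 0.00053, limma) in *mep-1(RNAi)*. In single batches the log2 values were 1.38, 1.52 and 1.15 in *let-418(RNAi)* and 1.73, 1.43 and 2.10 in *mep-1(RNAi)*.

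*zim-2*, whose product binds the chromosome V pairing centre, was the only one of the 7 called genes to lose a call when 1 array was left out. It had 72.6, 99.3 and 71.4 in *let-418(RNAi)* and 104, 81.2 and 99.6 in *mep-1(RNAi)* larvae, against 47.9, 31.8 and 21.4 in *gfp(RNAi)* larvae. The control signals differed by more than a factor of 2 among themselves, and batch 1 gave a log2 difference of only 0.60 in *let-418(RNAi)*. The fold changes were 2.51 (log2 1.33, SE 0.31, 95% interval 0.64 to 2.01, adjusted p = 0.014, limma) and 2.96 (log2 1.56, 95% interval 0.88 to 2.25, adjusted p = 0.005, limma) in the knockdowns of *let-418* and *mep-1*. Without the second *let-418(RNAi)* array the first of these was 1.17 with an adjusted p of 0.061 (limma), and the call was lost.

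*him-8* had the smallest difference of the 8 genes, on control signals well above the dim end of the array. It had signals of 164, 154 and 186 in *let-418(RNAi)* and 163, 204 and 182 in *mep-1(RNAi)* larvae, against 114, 94.4 and 106 in *gfp(RNAi)* larvae. The knockdown arrays lay above the control arrays with narrow spreads, the SD being 16.2, 20.5 and 9.88 about means of 168, 183 and 105 (n = 3 each). The fold changes were 1.60 (log2 0.68, SE 0.18, 95% interval 0.29 to 1.06, adjusted p = 0.022, limma) in *let-418(RNAi)* and 1.74 (log2 0.80, 95% interval 0.42 to 1.18, adjusted p = 0.0086, limma) in *mep-1(RNAi)*. Every interval for *him-8* held the 2-fold line, at log2 1, so a change of that size was not excluded. In *let-418(RNAi)* the adjusted p from limma was 0.062 without the first and 0.084 without the third *let-418(RNAi)* array, 0.086 without the second *gfp(RNAi)* array and 0.092 with quantile normalization.

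Log2 ratios within arrays restate the unequal factors from the same signals. The log2 ratio of *zim-1* to *him-8* was -1.23 to -0.68 in *let-418(RNAi)* and -1.20 to -0.32 in *mep-1(RNAi)*, against -2.50 to -1.50 in *gfp(RNAi)* larvae, with no overlap. The *zim-3* to *him-8* ratio did not overlap for *mep-1(RNAi)* (-0.94 to -0.45) but did for *let-418(RNAi)* (-1.43 to -0.44), against -1.77 to -1.25 in *gfp(RNAi)*. The *zim-2* to *him-8* ratio overlapped in both. As with the SYP genes, these pairs were picked after the fold changes were seen and were not tested.

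The 4 pairing-centre genes lie next to each other on chromosome IV, in the order *zim-1*, *zim-2*, *zim-3* and *him-8*, so their neighbours were examined. In the WBcel235 annotation, used here for order only, 2 pseudogenes, *T07G12.14* and *T07G12.8*, lie within the span of *zim-1*. With the nearest 3 protein-coding genes on each side this gave 8 neighbours, of which 4 were measured. The positions of the probes are not given in the sources used here. *T07G12.3*, the third gene before *zim-1*, was called in both comparisons. Its signals averaged 177 ± 12.1 in *let-418(RNAi)* and 169 ± 23.1 in *mep-1(RNAi)* larvae, against 40.9 ± 17.2 in *gfp(RNAi)* larvae (SD, n = 3 each), with log2 fold changes of 2.22 (adjusted p = 0.00044, limma) and 2.14 (adjusted p = 0.00056, limma). The other 3 were not called. *svct-1*, just before *zim-1*, had -0.18 and -1.98 with a standard error of 0.88. *T07G12.8* had 0.54 and 0.45, and the ephrin gene *efn-2*, just after *him-8*, had 0.19 and -0.12 (adjusted p from limma at least 0.1 for all 3 genes in both comparisons). The median of the 4 neighbours was 0.36 in *let-418(RNAi)* and 0.16 in *mep-1(RNAi)*.

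**Figure D3:**
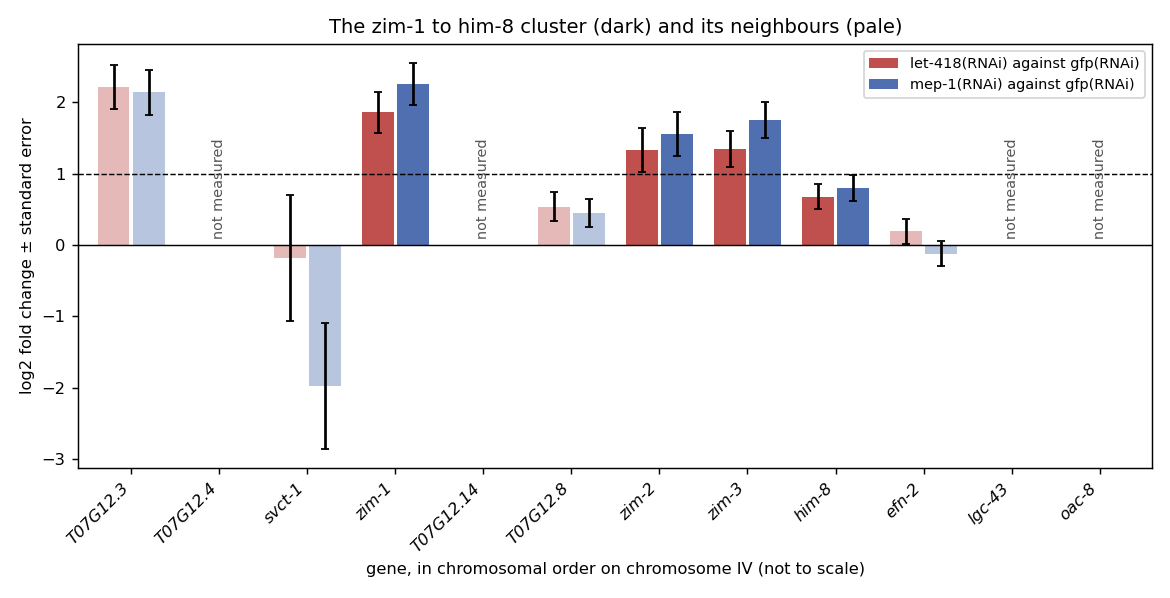
Log2 fold change against *gfp(RNAi)*, with its standard error, for the zinc-finger genes *zim-1* to *him-8* (dark) and their neighbours (pale) in the order of the genes along chromosome IV, not to scale, for *let-418(RNAi)* (red) and *mep-1(RNAi)* (blue), with a dashed line at 2-fold. *zim-1*, *zim-2* and *zim-3* pass 2-fold, as does *T07G12.3* (2.22 and 2.14), while *efn-2* next to *him-8* lies at 0.19 and -0.12.

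The SYP genes are not clustered in this way. *syp-1* and *syp-2* are on chromosome V, and *syp-3* and *syp-4* on chromosome I. Of 24 neighbours by the same rule 19 were measured, with medians of 0.06 in *let-418(RNAi)* and 0.01 in *mep-1(RNAi)*. In *let-418(RNAi)* 3 were called higher and 1 lower, and in *mep-1(RNAi)* 2 were called higher and 0 lower. Those called higher in both have known germline roles. *mrt-1*, a telomere maintenance gene next to *syp-3*, averaged 218 ± 18.6 in *let-418(RNAi)* and 233 ± 27.2 in *mep-1(RNAi)*, against 65.3 ± 5.22 in *gfp(RNAi)* larvae (SD, n = 3 each), log2 differences of 1.74 (adjusted p = 3.8e-05, limma) and 1.83 (adjusted p = 2.2e-05, limma). *glh-1*, which encodes a Vasa-like helicase of P granules and lies 3 genes from *syp-4*, had 3.25 and 3.57. The others passed both limits in *let-418(RNAi)* only, and the direct test between the knockdowns gave adjusted p of 0.97 for *grl-1* and 0.88 for *ugt-48* (limma). *grl-1* had 2.33 and 1.91 (adjusted p = 0.033 and 0.07, limma), and *ugt-48* had -1.36 and -0.91 (adjusted p = 7e-04 and 0.0087, limma), both near *syp-2*.

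Other genes of synapsis and pairing moved in both directions. Of 16 listed, 15 were measured, and 7 were called higher and 1 lower in *let-418(RNAi)*, with 7 higher and 0 lower in *mep-1(RNAi)*. The 8 calls in *let-418(RNAi)* were 4 with signals as deposited and 5 with the added 21.1. Of all probe sets 2.75% and 3.3% were called lower in these comparisons. The median log2 fold change of the list was 0.49 and 0.37. *syp-5* and *syp-6*, later described components of the central region, had the largest rises by the mean of both knockdowns, with *syp-5* at 66.4 ± 12.2 in *let-418(RNAi)* and 82.2 ± 13.9 in *mep-1(RNAi)*, against 17.9 ± 5.40 in *gfp(RNAi)* larvae (SD, n = 3 each). The log2 fold changes of *syp-5* were 1.92 and 2.23 (adjusted p = 0.0012 and 4e-04, limma), and those of *syp-6* were 1.37 and 1.92 (adjusted p = 0.00042 and 2.9e-05, limma). The remaining genes called in both were *skr-2*, *hal-2*, *hal-3*, *plk-2*, a Polo-like kinase that acts at pairing centres, and *sun-1*, whose product lies in the nuclear envelope where pairing centres attach. *fkb-6*, a chaperone-associated immunophilin gene expressed widely, fell by 1.10 on the log2 scale in *let-418(RNAi)* (970.2 ± 111, against 2083 ± 226 in *gfp(RNAi)*, adjusted p = 0.00048, limma). In *mep-1(RNAi)* its log2 fold change was -0.89 (adjusted p = 0.002, limma), which is under the fold limit. *plk-1*, the mitotic Polo-like kinase, had -0.57 and -0.44 and was called in neither. *chk-2*, the kinase that phosphorylates the pairing-centre proteins, had 0.49 and 0.37 (adjusted p = 0.45 and 0.58, limma), also not called.

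Genes of the chromosome axis, to which the central region attaches, rose for the most part. Of 8 listed genes 7 were measured, and 5 were called higher and 0 lower in each comparison, with medians of 1.97 in *let-418(RNAi)* and 2.48 in *mep-1(RNAi)*. *rec-8*, the meiotic cohesin subunit, averaged 654 ± 63.3 in *let-418(RNAi)* and 962 ± 166 in *mep-1(RNAi)*, against 88.0 ± 19.0 in *gfp(RNAi)* larvae (SD, n = 3 each). Its log2 fold changes were 2.91 and 3.46 (adjusted p = 1.8e-06 and 4.1e-07, limma). *him-3*, a HORMA-domain axis gene, had 2.80 and 2.85 (adjusted p = 1e-06 and 6.4e-07, limma), and the related *htp-1*, *htp-2* and *htp-3* were called as well. *coh-3* (0.63 and 0.74) and *lab-1* were not called. *lab-1* passed the fold limit, at 1.25 and 1.37 (SE 0.49), but not the adjusted p (0.12 and 0.083, limma). Its control signals were dim, at 14.5 ± 7.23.

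Genes of meiotic breaks and crossovers followed in part. Of 24 listed, 23 were measured. In *let-418(RNAi)* 9 were called higher and 0 lower (median 0.75), and in *mep-1(RNAi)* 12 were called higher and 0 lower (median 1.22). These counts depend on the settings, being 4 and 4 with signals as deposited, 4 and 5 with the added 21.1, and 5 and 7 by the methods' t-test after Benjamini-Hochberg adjustment. *zhp-2*, a RING-finger gene whose product lies along the synaptonemal complex, averaged 219 ± 28.9 in *let-418(RNAi)* and 279 ± 123 in *mep-1(RNAi)*, against 24.7 ± 4.98 in *gfp(RNAi)* larvae (SD, n = 3 each), or log2 3.16 (adjusted p = 2.1e-05, limma) and 3.43 (adjusted p = 9.5e-06, limma). *dsb-2*, needed to form meiotic breaks, had 3.05 and 3.20 (adjusted p = 5e-06 and 2.9e-06, limma). *spo-11*, the break enzyme itself, had 1.20 and 1.36 (adjusted p = 0.026 and 0.013, limma). *brc-1*, the BRCA1 orthologue used in DNA repair generally, had -0.68 and -0.73 (adjusted p = 0.023 and 0.016, limma), which is under the fold limit, and *rad-50* had -0.29 and 0.08.

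Most markers of germ cells were higher on the same arrays. Of 17 germ cell markers, all measured, 11 were called higher and 0 lower in each comparison, with medians of 1.69 in *let-418(RNAi)* and 1.93 in *mep-1(RNAi)*. The 6 not called were *meg-1* (-0.19 and -0.28), *nos-2* (-0.22 and 0.23), *glh-4* (0.08 and 0.33), *car-1* (0.09 and 0.28), *cgh-1* (0.21 and 0.45) and the dim *meg-2* (0.88 and 0.27). Of these only *cgh-1* passed the adjusted p, in *mep-1(RNAi)* (0.028, limma). Their summed signal was 10414 to 12301 on *let-418(RNAi)* arrays and 13364 to 14938 on *mep-1(RNAi)* arrays, against 2985 to 3202 on *gfp(RNAi)* arrays. Bright probe sets weigh most in such a sum, and without its brightest genes, *prg-1* and *glh-1*, the sum of the other 15 was 4879 to 5743 and 6179 to 6324, against 2399.9 to 2636. *prg-1*, a Piwi gene, averaged 3898 ± 355 and 4691 ± 660.2, against 315 ± 23.2, and *glh-1* averaged 2555 ± 541 and 3144 ± 80.1, against 265 ± 21.3 (SD, n = 3 each). Of 16 oocyte and early embryo markers 9 were called higher and 0 lower in each comparison, with sums of 3351 to 4030 and 3797 to 3924, against 2036 to 2106. *mex-5* among them had log2 fold changes of 2.92 and 3.06, and *mbk-2* had 0.22 and -0.08. Sperm markers were not called. Of 9 listed 8 were measured, and their sums were 114 to 139 and 121 to 179, against 122 to 139, with *spe-9* at 39.9 ± 14.6 and 33.7 ± 9.68, against 36.3 ± 7.16. No marker signal was 0 on any array, MAS5 signals being above 0 throughout.

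Markers of body tissues, 5 for each tissue, moved in both directions, mostly by less than 2-fold. In the intestine 1 was called higher in each comparison, the gut transcription factor gene *elt-2*, with 1.25 and 1.39 (adjusted p = 0.0013 and 0.00058, limma). At the adjusted p alone, 3 intestine markers were lower in *let-418(RNAi)* and 2 in *mep-1(RNAi)*. These were *vha-6*, a proton pump gene, at -0.96 and -0.80, the esterase gene *ges-1* at -0.67 and -0.82, and, in *let-418(RNAi)*, the actin gene *act-5* at -0.50 (adjusted p = 0.042, limma), which had -0.22 in *mep-1(RNAi)*. *ifb-2* had 0.04 and 0.03. The sums of the intestine list were 12448 to 14324 in *let-418(RNAi)* and 13566 to 16878 in *mep-1(RNAi)*, against 16375 to 18561 in *gfp(RNAi)* larvae.

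Of the body wall muscle, hypodermis and pharynx markers 0 were called in either comparison at both limits. At the adjusted p alone, 1 muscle marker was lower in *let-418(RNAi)* and 2 in *mep-1(RNAi)*, namely *unc-89* at -0.62 and -0.71 (adjusted p = 0.033 and 0.015, limma) and, in *mep-1(RNAi)*, *myo-3* at -0.57 (adjusted p = 0.049, limma). The brighter muscle genes were near level, with *unc-54* at -0.02 and 0.09 and *unc-15* at -0.10 and 0.02. In the pharynx the myosin gene *myo-1* was lower at -0.97 and -0.93 (adjusted p = 0.011 and 0.013, limma), *tnc-2* was lower in *mep-1(RNAi)* at -0.79 (adjusted p = 0.024, limma), and *pha-4* was higher in *let-418(RNAi)* at 0.59 (adjusted p = 0.035, limma). Sums of the pharynx markers were 4577 to 5022 and 3861 to 6245, against 6168 to 9969, and those of the muscle markers were 16639 to 21097 and 19765 to 20974, against 20078 to 21546. The hypodermis markers, of which 0 passed the adjusted p, summed to 19157 to 28737 and 19028 to 26463, against 10099 to 19135. The brightest, *dpy-13* (0.67 and 0.66) and *rol-6* (1.05 and 0.87), weigh most in this sum. For *rol-6*, batch 3 gave 2.49 and 1.58 and batch 1 gave 0.14 and 0.30. *dpy-7* had 0 and -0.07, *lin-26* had 0.12 and 0.29, and the dim *bli-1* had 0.28 and 0.84. In neurons *rab-3* was lower in both, at -0.88 and -1.12 (adjusted p = 0.018 and 0.0042, limma), and was called in *mep-1(RNAi)* (795 ± 177, against 1709 ± 261 in *gfp(RNAi)*, SD, n = 3 each). The other 4 neuron markers did not pass the adjusted p in either comparison. Of these, *snb-1* had -0.14 and -0.22, and *ric-4* had -0.35 and -0.50. *unc-119* and *unc-64* went the other way, at 0.58 and 0.53 and at 0.27 and 0.16. Sums of the neuron markers were 4856 to 6629 and 4428 to 6048, against 6791 to 7499. The part of tissue composition in the rise of the 8 genes was not tested.

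**Figure D4:**
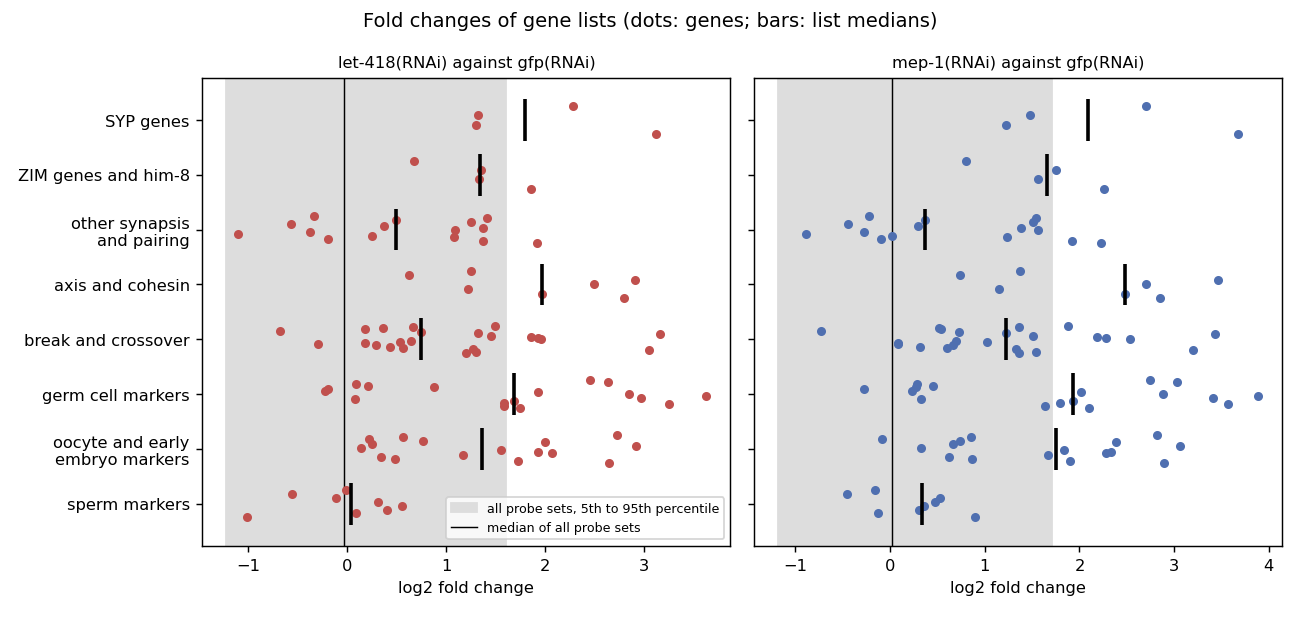
Log2 fold changes against *gfp(RNAi)* of the genes of each list (dots), their medians (vertical bars), and the 5th to 95th percentile of all probe sets (grey), with *let-418(RNAi)* on the left and *mep-1(RNAi)* on the right. The medians of the SYP genes (1.80 and 2.09) and of the axis and cohesin genes (1.97 and 2.48) lie above the 95th percentile of all probe sets (1.61 and 1.71), that of the pairing-centre genes (1.34 and 1.66) below it, and those of the sperm markers at 0.04 and 0.33.

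Genes whose pattern over the 9 arrays was most like that of the SYP genes were looked for by the root mean square difference between log2 profiles centred per gene, among 15953 probe sets. Closest to the mean SYP profile were *chs-1*, a chitin synthase gene of the eggshell, at 0.10, and the genes *VF13D12L.3* at 0.13 and *ZK896.1* at 0.14. For *chs-1* the log2 differences from *gfp(RNAi)* were 2.07 in *let-418(RNAi)* (adjusted p = 0.00024, limma) and 2.28 in *mep-1(RNAi)* (adjusted p = 0.00012, limma). The SYP genes themselves lay at 0.36 to 0.67 from their own mean profile, with *syp-1* farthest. Closest to the mean profile of the ZIM genes and *him-8* were *duo-1* and *bath-4* at 0.12 and *mus-101*, a DNA replication and damage response gene, at 0.13. For *mus-101* they were 1.14 and 1.36 (adjusted p = 0.00035 and 9.3e-05, limma). *zim-3* lay at 0.14 from that profile, *zim-2* at 0.22, *zim-1* at 0.35 and *him-8* at 0.41. With 3 groups, such distances mostly rank the sizes of the 2 differences from *gfp(RNAi)*, and many genes share them.

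The *mep-1(RNAi)* and *let-418(RNAi)* arrays were also compared with each other. None of the 8 genes was called (0 of 8 by limma at both limits, and 0 of 8 by the methods' t-test at its own), where 1 of 22548 probe sets, 0.00443%, was called and 1264 (5.61%) had an unadjusted p under 0.05. No gene of the 8 had such a p, the lowest being 0.079 for *syp-1*. The mean of 7 of 8 genes was higher in *mep-1(RNAi)*. The log2 differences were 0.54 for *syp-1*, 0.42 for *syp-4*, 0.41 for *zim-3*, 0.40 for *zim-1*, 0.24 for *zim-2*, 0.16 for *syp-3*, 0.12 for *him-8* and -0.08 for *syp-2*, with adjusted p of 0.89 to 0.99 (limma). The signals of 2 genes, *syp-1* and *syp-4*, did not overlap between the knockdowns, as was the case in that direction for 6.68% of all probe sets. The 95% intervals of the 8 differences lay within -0.65 and 1.21, and those of *syp-1*, *syp-4* and *zim-1* reached past 2-fold, so that such differences were not excluded with 3 arrays per group. In order of mean level, the groups ran *mep-1(RNAi)*, *let-418(RNAi)*, *gfp(RNAi)* for 7 genes and *let-418(RNAi)*, *mep-1(RNAi)*, *gfp(RNAi)* for *syp-2*, with the knockdown groups not distinguished by the test.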

How the data were processed

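Per the labels and the methods, the authors summarised probe intensities to 1 MAS5 signal (version not given) for each of 22548 probe sets, and the deposited values are linear intensities of 0.0253 to 23450. Their methods name a global scaling, but trimmed means differed between arrays, which the planned design had not assumed. Each array was therefore scaled to a 2% trimmed mean of 324 (factors 0.743 to 1.55). All 9 columns matched an array and 0 were left over. The authors' fold changes were not used.

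The log2 signals of 9 arrays were fitted with 3 group means in limma 3.58.1 under R 4.3.3 (lmFit, eBayes with trend, 2-sided tests, Benjamini-Hochberg adjustment over all probe sets). Figures used Python 3.11.15, pandas 2.3.3, numpy 2.4.6 and matplotlib 3.10.9. P-values measure the spread between 3 arrays per group, and the number of arrays limits precision. The fit was tested on simulated data. Replicate arrays correlated at 0.949 to 0.962 (log2, 9 pairs). Arrays of different groups with the same labelled batch number were taken as pairs for the single-batch differences. The main fit used no pairing. Residuals of same-numbered arrays correlated at -0.03 to 0.10 (9 pairs) and of others at -0.14 to 0.10 (18 pairs).

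Genes came from the platform's annotation (20766 probe sets with 1 gene, 887 with several, 895 with none), and neighbours and chromosomes from RefSeq (WBcel235). Where a gene had several probe sets, that with the highest mean log2 signal was used. The text names the 8 genes, up to 4 genes of each meiotic list (the largest rises and falls by the mean of both knockdowns), up to 2 of the brightest of each marker list, called neighbours and the 3 closest profiles. *skr-2*, *hal-2*, *hal-3*, *plk-2*, *sun-1*, *chk-2*, *spo-11*, *htp-1*, *htp-2*, *htp-3*, *coh-3*, *lab-1*, *elt-2*, *vha-6*, *ges-1*, *unc-89*, *myo-3*, *tnc-2*, *pha-4*, *rab-3* and neighbours not called were added after their values were seen, as was the germ cell sum without its brightest genes. The markers *unc-119*, *unc-64*, *dpy-7*, *lin-26* and *bli-1* were likewise added after their values were seen. So were *spe-4*, *gsp-3*, *glh-4*, *nos-2*, *meg-1*, *meg-2*, *cgh-1* and *car-1*. The genes, lists and tests were chosen with earlier results of these data known. Alternatives were quantile normalization, deposited signals, an offset of 21.1, leaving out the probe sets below the 25th percentile, no trend, 6 arrays only, the batch as a replicate block, no fold limit, the methods' t-test, a gene's mean probe set, and each array left out. Sequences of these genes were not used here.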

Additional observations from a re-analysis of the deposited data

How the results depend on the processing

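The 8 genes had 320 log2 fold changes against *gfp(RNAi)* under the alternatives. Of these 320 were above 0, 297 stayed called or not called as before, 21 lost a call and 2 gained one. The count above 0 is no separate test. Many alternatives, such as no trend, no fold limit and the methods' t-test, leave the log2 difference itself as it was. As the signals of the 8 genes did not overlap with those of *gfp(RNAi)*, leaving out an array could not turn a sign either. A value that stayed uncalled, as for *him-8*, could still cross the adjusted p limit alone. With signals as deposited, 3 of the 8 genes were called in *let-418(RNAi)* larvae and 4 in *mep-1(RNAi)*, 4 of the other synapsis genes in *let-418(RNAi)* (8 before, both directions), and 4 break and crossover genes in each (9 and 12 before). With the offset, 4 of the 8 genes were called in *let-418(RNAi)*, 5 other synapsis genes in *let-418(RNAi)*, and 4 and 5 break and crossover genes. The methods' t-test after Benjamini-Hochberg adjustment called 4 of the 8 genes in each comparison and 5 and 7 break and crossover genes. At its own limits of p 0.01 and 2-fold it called 5 and 6 of the 8. The shares of all probe sets called under these alternatives are not given here. *him-8* had an adjusted p of 0.42 (limma) in both comparisons with signals as deposited. Median shifts of all probe sets were then -0.10 and -0.27, against -0.08 and -0.07 with quantile normalization. The causes were not tested.

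Leaving out 1 array, 6 to 7 and 7 to 7 of the 8 genes were called in the knockdowns of *let-418* and *mep-1*, 0 to 0 between the knockdowns, 7 to 8 in each for other synapsis, 5 to 5 and 4 to 5 for the axis, and 7 to 9 and 9 to 12 for breaks and crossovers. Between the knockdowns, 4 differences that had passed no test turned sign. These were *syp-3* at -0.06 and *him-8* at -0.09 with signals as deposited, and *syp-2* at 0.03 without *let-418(RNAi)* replicate 1 and 0.15 without *mep-1(RNAi)* replicate 3 (-0.29 to 0.15 over the 9 arrays left out). With the batch as a replicate block, 7 and 7 of the 8 genes were called, 8 and 7 other synapsis genes, 5 and 6 axis genes, 9 and 11 break and crossover genes, and 0 of the 8 between the knockdowns. The block changed the call of none of the 8 genes and moved no count of a list by over 1.5 times.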
